A study of Mus musculus with 12 samples.

Results

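Fibroblast growth factors (FGFs) and their receptors were measured as mRNA in mouse embryonic stem cells (mESC) after transient knockdown of *Srrm2*, which encodes a splicing factor of nuclear speckles. The 10 genes were taken by symbol from the 42450 genes listed, and this set was chosen with earlier results of these data known. They comprise the secreted ligands *Fgf4*, *Fgf5*, *Fgf8*, *Fgf15* and *Fgf17*, the intracellular factors *Fgf11* and *Fgf13*, and the receptors *Fgfr1*, *Fgfr2* and *Fgfr4*. All 10 were found in the table, and all 10 were among the 19410 genes that passed the filter on low counts. After knockdown, *Fgf11* and *Fgf17* had the smallest p-values of the members (mean level 58.9% and 63.8% of the control). Both were lower in all 3 experiments at both time points, as were *Fgf4*, *Fgf8* and 7.25% of all genes. By edgeR's quasi-likelihood test, neither *Fgf11* nor *Fgf17* passed the adjusted threshold in the fit used here. DESeq2 called both at 72 h and for the mean of both times, where it called 3.38% and 4.68% of all genes. The paper, whose edgeR fit took the RNA processing day as covariate, names *Fgf11* among its genes changed at 72 h. Between 24 h and 72 h in control cells, *Fgfr4* was 3.35-fold higher at 72 h. It was the member called by edgeR, where 1.45% of all genes were called, and its call depended on the block and on single libraries. DESeq2 called *Fgf11* and *Fgf17* there as well, where it called 8.16% of all genes.

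Secreted FGFs bind receptor tyrosine kinases together with heparan sulfate, and the receptors signal through adaptor proteins to RAS and the kinase ERK. In mESC, *Fgf4* is the best known ligand. It is made by the stem cells themselves, and ERK activity downstream of it primes them to leave naive pluripotency. *Fgf5* marks the epiblast after this transition. *Fgf8* and *Fgf17* belong to one subfamily with roles in gastrulation and brain patterning, and *Fgf15* is the mouse counterpart of human FGF19, an FGF that also acts as a hormone. *Fgf11* and *Fgf13* encode FGF homologous factors, which are not secreted and are known as partners of voltage-gated sodium channels.

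The cells were E14tg2a.4, a mESC line kept on gelatin with the cytokine LIF. In each of 3 experiments, siRNA at 50 nM was directed to *Srrm2* (Srrm2-KD) or, as control, to Gl2, a luciferase sequence of the firefly that the cells lack (Gl2-KD). Cells of every group were grown in serum-free ESGRO medium with LIF for 24 h or 72 h, and those harvested at 72 h had been transfected again with the same siRNA at 24 h. This gives 4 groups of 3 polyA+ libraries, all from 1 unmodified parental line, and a knockdown rather than a loss of the gene.

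The 12 libraries held 73933196 to 153343831 estimated counts each, as rounded. Values are given as CPM, the estimated counts relative to the TMM-scaled size of the library, unless they are said to be per kilobase. *Srrm2* had 442 to 962 CPM in the 6 Gl2-KD libraries and 154 to 517 CPM in the 6 Srrm2-KD libraries. It was lower after knockdown in 6 of 6 pairs of libraries of the same experiment and time, but the groups overlapped, since the Srrm2-KD libraries of experiment 1 were as high as the Gl2-KD libraries of experiments 2 and 3. The libraries of experiment 1 also stood apart along the first principal component (39.9% of the variance), and results are therefore given without experiment 1 where that changes them. The 14 markers of naive and core pluripotency, among them *Pou5f1* at 1150 to 1960 CPM, summed to 3990 to 5210 CPM, and 7 fibroblast markers summed to 5.16 to 26.4 CPM.

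The bases upstream of the start site are shown for *Fgf4*, the member with the highest level, and for *Fgf11*. The latter had the smallest p of the members after knockdown for the mean of both times. RefSeq promoter windows (GRCm38.p6) were matched for 6 of the 10 members. Each sequence below runs 5′ to 3′ on the strand of the gene and covers the 250 bases before the RefSeq start. Capitals mark GGGCGG (the GC box), TATATA and CCAAT, searched on both strands, so that CCAAT on the opposite strand reads ATTGG. The motif TATATA was added to the search after the sequence had been read, and its 2 matches in *Fgf4* overlap.
*Fgf4*, chr7:144861136-144861385, plus strand: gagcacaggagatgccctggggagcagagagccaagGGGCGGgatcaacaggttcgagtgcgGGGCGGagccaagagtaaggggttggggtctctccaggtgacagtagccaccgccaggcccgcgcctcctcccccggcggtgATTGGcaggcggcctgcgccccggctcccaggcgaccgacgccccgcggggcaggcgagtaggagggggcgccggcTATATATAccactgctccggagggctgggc
*Fgf11*, chr11:69802281-69802530, minus strand: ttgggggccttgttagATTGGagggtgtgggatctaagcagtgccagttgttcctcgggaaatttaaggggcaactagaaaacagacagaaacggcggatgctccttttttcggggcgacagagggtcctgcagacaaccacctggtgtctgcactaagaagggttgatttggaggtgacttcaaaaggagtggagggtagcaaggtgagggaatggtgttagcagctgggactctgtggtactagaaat

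The *Fgf4* window held 2 GC boxes, 2 overlapping TATATA and 1 CCAAT, with 71.2% G and C. It lies within the *Fgf4* gene of GENCODE M21, outside its exons, because one annotated transcript starts 14019 bases further upstream. The *Fgf11* window held 1 CCAAT, no GC box and 51.2% G and C, and its RefSeq start lies 423 bases upstream of the GENCODE start. Of 32851 mouse windows of the same length, 32.7% held the GC box, 5.25% TATATA and 33.8% CCAAT, and the median content of G and C was 52.4%. No window of either gene held TATAAA or ATGCAAAT, which were found in 12.4% and 1.6% of all windows.

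*Fgf4* (chromosome 7 from 144847367 to 144865243, GRCm38) was by far the most abundant member per length. Its mean over 12 libraries was 72.8 CPM per kb of annotated exons, with a range of 57.1 to 107 CPM per kb. This range did not overlap that of any other member. *Fgf17* followed with 12.1 CPM per kb, *Fgfr1* with 6.71 and *Fgf15* with 5.4. *Fgf15* lies 31.3 kb from *Fgf4* on chromosome 7. The lower group ran from *Fgf5* (1.98 CPM per kb), *Fgfr2* (1.61) and *Fgf11* (1.47) to *Fgfr4* (0.741) and *Fgf13* (0.479). *Fgf8* was the lowest at 0.248 CPM per kb, with only 9 to 113 estimated counts per library. Apart from *Fgf4*, each member overlapped its neighbour in this order over the 12 libraries. The ranks between *Fgf4* and *Fgf8* also depended on the length that was used: per median annotated transcript *Fgfr1* ranked 2 and *Fgf17* ranked 4.

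**Figure D1:**
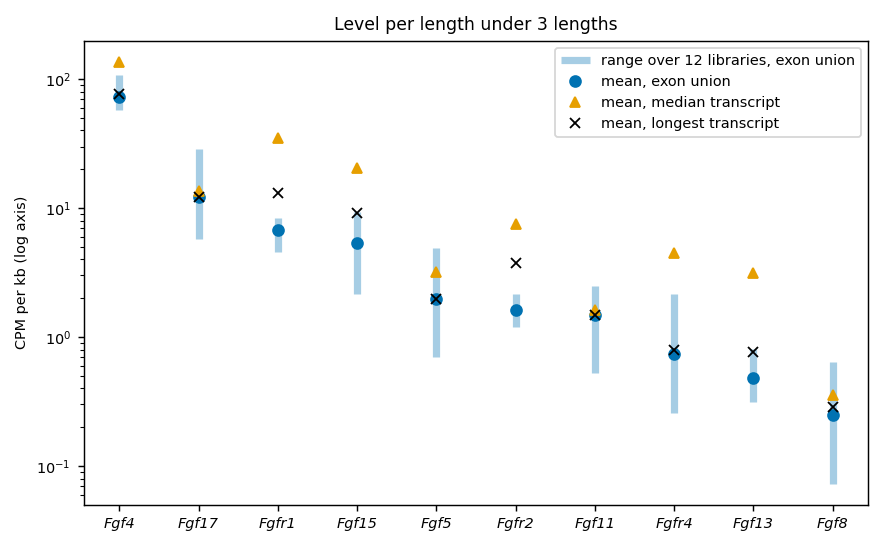
Mean level of each gene over 12 libraries in CPM per kb (log axis), with the range over the 12 libraries as a bar for the exon union, and the mean under 3 definitions of gene length. *Fgf4* is highest and *Fgf8* lowest under all 3, while the genes between them change rank.

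Knockdown of *Srrm2* moved no member past the adjusted threshold of 0.05 at 24 h, at 72 h or in the mean of both, by edgeR's quasi-likelihood test. *Srrm2* itself missed this threshold at 24 h (log2 fold change -1.22, SE 0.14, edgeR adjusted p = 0.0663) and at 72 h (-1.16, SE 0.14, edgeR adjusted p = 0.0991) and passed it for the mean (edgeR adjusted p = 0.00254). The share of all genes called was 0% at 24 h, 0% at 72 h and 0.0670% for the mean. The paper's edgeR fit, which took the RNA processing day as covariate, called *Srrm2* at both times and further genes at 72 h. At an unadjusted p below 0.05 the counts of members were 2 at 24 h, 4 at 72 h and 3 for the mean, where 2.62%, 12.9% and 13.6% of all genes passed. The newer form of the same test (legacy=FALSE) called 0 members at 24 h, 0 at 72 h and 1 for the mean, where it called 0.00515%, 0.0258% and 0.407% of all genes. The median log2 fold change of the 10 members was -0.08 at 24 h and -0.26 at 72 h, against 0.01 and -0.02 for all genes. DESeq2 called 1 member at 24 h, 2 at 72 h and 2 for the mean, where it called 0.129%, 3.38% and 4.68% of all genes. By limma-voom, 0 members were called at 24 h, 0 at 72 h and 1 for the mean, where 0.0103%, 0.0206% and 0.474% of all genes were called. Knockdown was compared within the 6 pairs of libraries that share an experiment and a time. *Fgf4*, *Fgf8*, *Fgf11* and *Fgf17* were lower in 6 of 6 pairs, as were 7.25% of all genes, and *Fgfr2* was higher in 6 of 6, as were 7.0% of all genes. At 24 h, 4 members were lower and 1 was higher in 3 of 3 experiments, where 15.4% of all genes were lower and 17.3% higher, and at 72 h, 6 were lower and 1 was higher, where 23.1% were lower and 18.8% higher. Groups without overlap were found for 0 members at 24 h, where 1.55% of all genes were separated with lower and 1.89% with higher values. At 72 h, 2 members were separated with lower values and 0 with higher, where the share of all genes was 3.67% and 2.99%. In these bulk libraries, fewer cells that express a gene and less RNA per cell cannot be told apart.

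**Figure D2:**
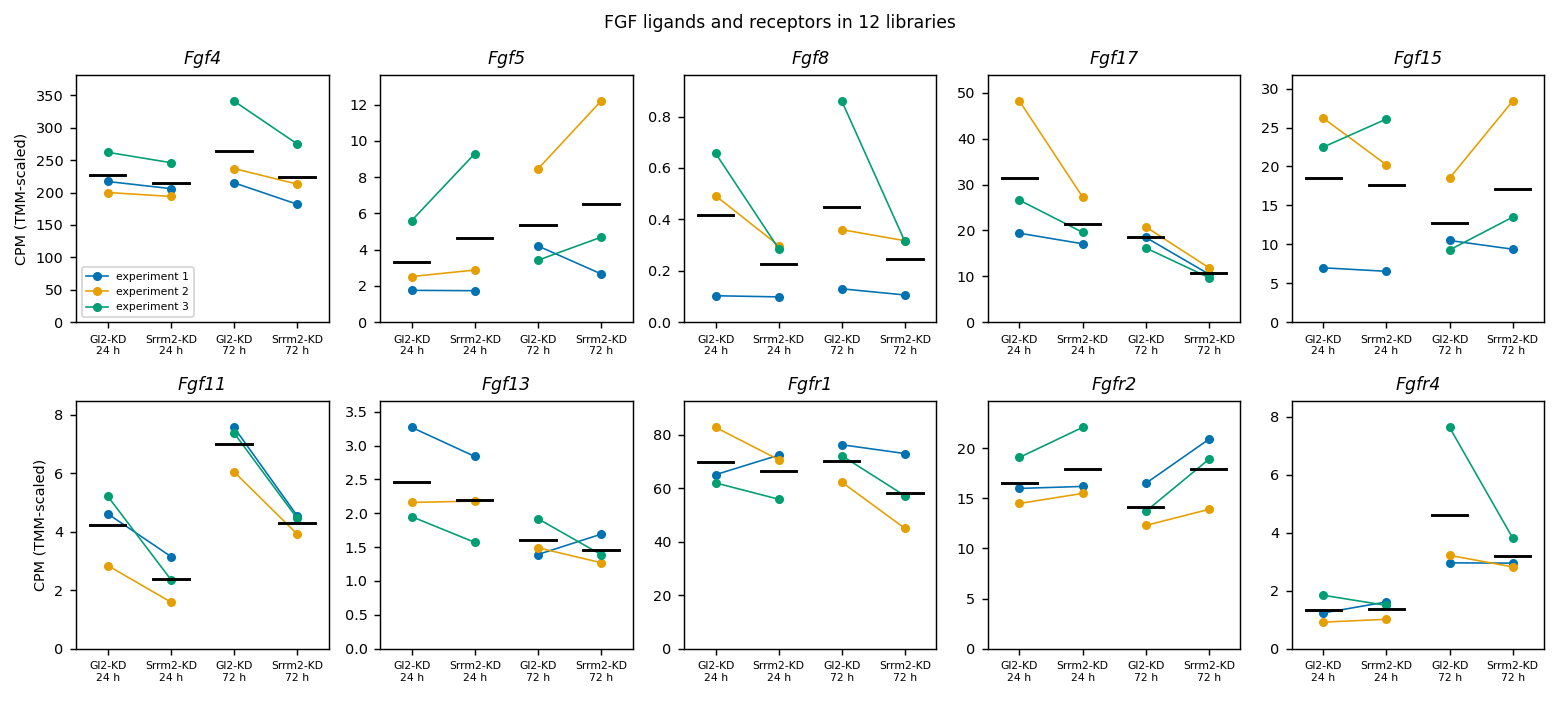
CPM of the 10 genes in all 12 libraries, with a point per library, a line joining the 2 siRNAs of 1 experiment and time, and a black bar for the mean of 3 libraries; each panel has its own linear axis from 0. *Fgf11* and *Fgf17* fall along every line, the *Fgf8* values of experiment 1 lie below all others, and *Fgfr4* is higher in all 6 libraries of 72 h than in all 6 of 24 h.

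*Fgf17* (chromosome 14 from 70636203 to 70642268) showed the most even difference at 72 h. In experiments 1, 2 and 3 it had 18.5, 20.8 and 16.2 CPM in Gl2-KD and 10.5, 11.9 and 9.75 CPM in Srrm2-KD. The groups did not overlap, which was true of 3.67% of all genes in this direction, and *Fgf17* was at 58.1% of the control with a log2 fold change of -0.78 (SE 0.19, edgeR adjusted p = 0.155). At 24 h it had 19.4, 48.2 and 26.6 CPM in Gl2-KD and 17.1, 27.3 and 19.6 CPM in Srrm2-KD. Here the groups overlapped and the size varied with the experiment, from -0.18 in experiment 1 to -0.82 in experiment 2 on the log2 scale (fit -0.51, SE 0.19, adjusted p = 1). The mean of both times was -0.65 (SE 0.13, edgeR adjusted p = 0.0873), and without experiment 1 it was -0.71 with an edgeR adjusted p of 0.0448. That fit called 111 of 18984 genes for the mean, whereas 0 of all genes were called without experiment 2 or without experiment 3. With experiment and time point combined as the replicate block, *Fgf17* was called at 72 h (edgeR adjusted p = 0.0242) and for the mean (edgeR adjusted p = 0.0107), in a fit that called 3.73% and 5.79% of all genes. Over all alternatives, the adjusted p ranged from 0.00966 to 1 at 72 h and from 0.000786 to 1 for the mean.

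*Fgf8* (chromosome 19 from 45736798 to 45742915), the subfamily partner of *Fgf17*, was close to the limit of detection. At 24 h it had 0.103, 0.492 and 0.657 CPM in Gl2-KD and 0.0986, 0.298 and 0.286 CPM in Srrm2-KD, and at 72 h 0.13, 0.36 and 0.86 CPM against 0.106, 0.317 and 0.314 CPM. All 6 pairs were lower after knockdown, with nearly no difference in experiment 1 at 24 h and the largest in experiment 3. The mean log2 fold change was -0.70 (SE 0.28, edgeR adjusted p = 0.304), and its 95% interval ran from -1.31 to -0.09.

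*Fgf11* (chromosome 11 from 69796068 to 69801857) had the smallest p of the members for the mean of both times. At 24 h it had 4.61, 2.84 and 5.21 CPM in Gl2-KD and 3.15, 1.59 and 2.36 CPM in Srrm2-KD. It was lower within each experiment, although the control of experiment 2 lay below the knockdown of experiment 1, and the level was 56% of the control (log2 fold change -0.84, SE 0.20, edgeR adjusted p = 1). At 72 h it had 7.57, 6.05 and 7.38 CPM in Gl2-KD and 4.55, 3.92 and 4.46 CPM in Srrm2-KD. These groups did not overlap, and the level was 61.8% of the control (edgeR adjusted p = 0.205). The paper, with the RNA processing day in its edgeR fit, lists *Fgf11* among the genes changed at 72 h. The mean of both times was -0.76 (SE 0.14, edgeR adjusted p = 0.0681), at rank 57 of the 19410 genes by p. Without experiment 1 it was -0.84 (edgeR adjusted p = 0.0792). The same combined block called *Fgf11* at 72 h (edgeR adjusted p = 0.0393) and for the mean (edgeR adjusted p = 0.0107). DESeq2 called it at 24 h as well (adjusted p = 0.0177), and over all alternatives the adjusted p ranged from 0.0177 to 1 at 24 h, from 0.0175 to 1 at 72 h and from 8.65e-06 to 1 for the mean.

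*Fgf13* (chromosome X from 59062145 to 59568071), the other FGF homologous factor measured here as a member, did not share this difference. Its levels at 24 h were 3.27, 2.16 and 1.95 CPM in Gl2-KD and 2.84, 2.18 and 1.57 CPM in Srrm2-KD, and at 72 h 1.39, 1.49 and 1.92 CPM against 1.69, 1.27 and 1.39 CPM. It was lower in 4 of 6 pairs, and the mean log2 fold change of -0.17 (SE 0.18) had a 95% interval from -0.57 to 0.24. The difference between *Fgf11* and *Fgf13* in their response was not tested.

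*Fgf4* differed little but always in one direction. At 24 h it had 217, 200 and 262 CPM in Gl2-KD and 206, 194 and 246 CPM in Srrm2-KD, and at 72 h 215, 237 and 341 CPM against 182, 213 and 275 CPM. Each knockdown library was below its own control, but the spread between experiments exceeded this difference and the groups overlapped. The log2 fold change was -0.07 (SE 0.10) at 24 h and -0.24 (SE 0.10, edgeR adjusted p = 0.355) at 72 h, a level of 84.9% of the control. *Fgf5* (chromosome 5 from 98254184 to 98277030) and *Fgf15* (chromosome 7 from 144896531 to 144900953) had no common direction. *Fgf5* ranged from 1.74 to 12.2 CPM over the 12 libraries, and its mean log2 fold change of 0.25 had a 95% interval from -0.60 to 1.09. *Fgf15* ranged from 6.54 to 28.4 CPM, with a mean log2 fold change of 0.11 and an interval from -0.41 to 0.64. An annotated antisense gene, *Gm26793*, shares 24.9% of the exon bases of *Fgf15*, and the sources used here do not state whether the counting used strand, so part of the *Fgf15* counts is uncertain.

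Among the receptors, *Fgfr2* (chromosome 7 from 130162451 to 133123350) was the one that was higher after knockdown throughout. In GENCODE it starts 2856542 bases from its RefSeq start and shares 3.0% of its exon bases with *Ctbp2* on the same strand. At 72 h it had 16.5, 12.3 and 13.7 CPM in Gl2-KD and 20.9, 13.9 and 18.9 CPM in Srrm2-KD, and at 24 h 16.0, 14.5 and 19.1 CPM against 16.2, 15.5 and 22.1 CPM. The groups overlapped at both times, and the log2 fold change was 0.33 (SE 0.15, edgeR adjusted p = 0.375) at 72 h and 0.11 (SE 0.14) at 24 h. *Fgfr1* (chromosome 8 from 25513654 to 25575718), the receptor with the highest level per kb, had 65.1, 82.8 and 62.0 CPM in Gl2-KD and 72.4, 70.7 and 55.9 CPM in Srrm2-KD at 24 h. At 72 h it had 76.3, 62.3 and 72.2 CPM against 73.0, 45.0 and 57.2 CPM, lower in 3 of 3 experiments with overlapping groups (log2 fold change -0.28, SE 0.17, edgeR adjusted p = 0.525). *Fgfr4* (chromosome 13 from 55152640 to 55168759) had a log2 fold change of 0.10 (SE 0.27) at 24 h and of -0.43 (SE 0.26) at 72 h. The 72 h value rested mostly on experiment 3, where it was -1, against -0.01 in experiment 1.

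**Figure D3:**
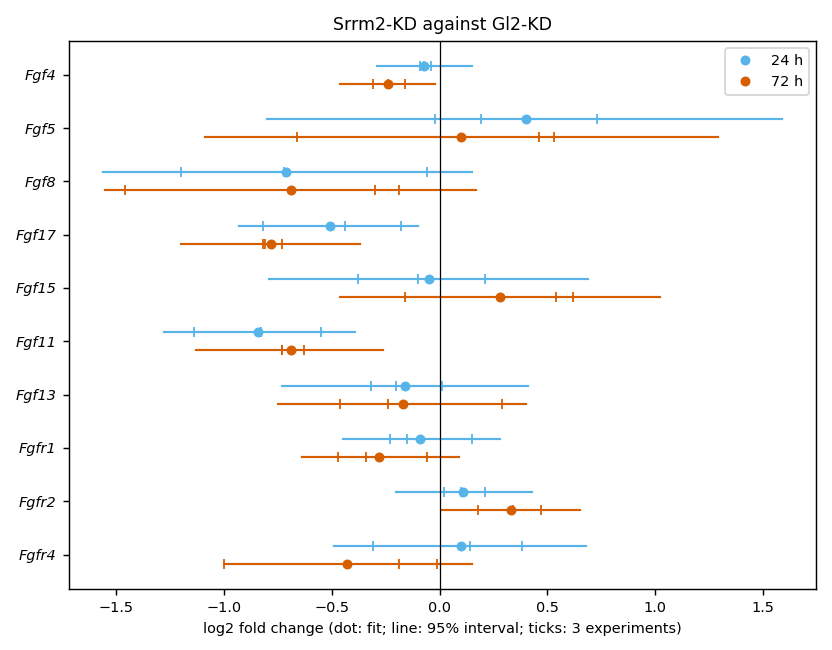
Log2 fold change of Srrm2-KD against Gl2-KD for each gene at 24 h and 72 h, with the fitted value as a dot, its 95% interval as a line and the 3 experiments as ticks. The intervals of *Fgf11* and *Fgf17* lie below 0 at both times, and those of *Fgf5* and *Fgf15* are the widest besides *Fgf8*.

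The difference of the knockdown effect between 24 h and 72 h was tested for all 10 members and called for none, with 0% of all genes called by edgeR, and 0 members at an unadjusted p below 0.05. DESeq2, which called 0.0103% of all genes, and limma-voom, which called 0%, also called 0 members. At an unadjusted p below 0.05, 1.64% of all genes passed. The difference was 0.14 (SE 0.28) for *Fgf11*, -0.27 (SE 0.27) for *Fgf17* and -0.53 (SE 0.37) for *Fgfr4* on the log2 scale, each with an edgeR adjusted p of 1. The 95% interval of *Fgf17* ran from -0.85 to 0.31.

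Sums of 3 marker lists did not overlap between the siRNAs at 72 h, and these lists are described here for that reason. The sums of the primitive streak, primitive endoderm, neural and fibroblast lists overlapped. The 13 genes of the formative and primed epiblast summed to 925 to 1370 CPM in Gl2-KD and 1380 to 1620 CPM in Srrm2-KD at 72 h, and 11 of 13 were higher in 3 of 3 experiments, as were 18.8% of all genes. By edgeR 0 of them were called, and 8 had an unadjusted p below 0.05, as did 12.9% of all genes. The 14 naive and core pluripotency genes summed to 4310 to 4620 CPM in Gl2-KD and 3990 to 4200 CPM in Srrm2-KD, with 0 called and 5 at an unadjusted p below 0.05. In 3 of 3 experiments 6 of these 14 were lower and 2 were higher, where 23.1% of all genes were lower and 18.8% higher. The 7 trophoblast markers summed to 119 to 138 CPM in Gl2-KD and 70.4 to 109 CPM in Srrm2-KD, with 0 called and 2 at an unadjusted p below 0.05. These were the transcription factor genes *Tfap2c* (-0.53, SE 0.12, edgeR adjusted p = 0.14) and *Tead4* (-0.53, SE 0.13, edgeR adjusted p = 0.159). They made up most of the sum, with 45.6 to 95 and 15.3 to 37.8 CPM over the 12 libraries. These 2 of 7 were lower in 3 of 3 experiments, as were 23.1% of all genes, and 0 were higher. *Cdx2*, *Elf5*, *Gata3* and *Hand1* had at most 0.209, 0.451, 0.662 and 0.383 CPM. No gene of these lists was at 0 in all libraries. Their part in the lower *Fgf11*, *Fgf17* and *Fgf4* values was not tested.

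Time in culture was compared within each siRNA. These comparisons share their libraries with those of the knockdown, and time after seeding cannot be told apart from the repeated transfection that only cells of 72 h had received. *Fgfr4*, a receptor known as a partner of endocrine FGFs in liver, had 1.23, 0.912 and 1.84 CPM at 24 h and 2.96, 3.22 and 7.64 CPM at 72 h in Gl2-KD. It was higher at 72 h in 3 of 3 experiments without overlap, as were 3.91% of all genes, and it was the 1 member called (log2 fold change 1.75, SE 0.27, edgeR adjusted p = 0.0179), where 1.45% of all genes were called. At an unadjusted p below 0.05, 3 members and 16.8% of all genes passed. In Srrm2-KD it had 1.61, 1.01 and 1.49 CPM at 24 h and 2.95, 2.82 and 3.82 CPM at 72 h. Again no library overlapped, with a log2 fold change of 1.22 (SE 0.27, edgeR adjusted p = 0.0764), where 0.551% of all genes and 0 members were called. At an unadjusted p below 0.05, 4 members and 16.3% of all genes passed there. The highest library was the Gl2-KD library of experiment 3 at 72 h, and without it the log2 fold change in Gl2-KD was 1.43 (edgeR adjusted p = 0.073). The call was lost in 5 of 12 fits that left out 1 library: each of the 3 Gl2-KD libraries of 24 h, and those of experiments 2 and 3 at 72 h. The call was lost as well without experiment 2, where 0 of all genes were called, and without experiment 3, where 87 of 19759 were. It was also lost without a block (log2 fold change 1.79, edgeR adjusted p = 1) and when experiment and siRNA together formed the block (1.71, edgeR adjusted p = 0.0533), a fit that called 0.0206% of all genes in Gl2-KD and 0% in Srrm2-KD. Over all alternatives the log2 fold change stayed between 1.43 and 1.99, and the adjusted p between 4.24e-08 and 1.

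*Fgf11* was also higher at 72 h than at 24 h in every experiment under both siRNAs, without overlap, as were 3.58% of all genes in Srrm2-KD. The levels are those given above, with log2 fold changes of 0.76 (SE 0.20, edgeR adjusted p = 0.0836) in Gl2-KD and 0.91 (SE 0.20, edgeR adjusted p = 0.0802) in Srrm2-KD. *Fgf17* went the other way, with -0.69 (SE 0.19, edgeR adjusted p = 0.0971) in Gl2-KD and -0.96 (SE 0.19, edgeR adjusted p = 0.0566) in Srrm2-KD. In Srrm2-KD all 3 libraries of 72 h were below all 3 of 24 h, as for 3.90% of all genes. Without experiment 1 *Fgf17* was called under both siRNAs, with log2 fold changes of -0.98 (edgeR adjusted p = 0.0321) and -1.11 (edgeR adjusted p = 0.0396). Those fits called 375 and 135 of 18984 genes. Without experiment 2, 0 of all genes were called, and without experiment 3, *Fgf17* was not among the 87 and 90 genes called. *Fgf13* was lower at 72 h in 3 of 3 experiments under both siRNAs (-0.57 and -0.59, SE 0.26 each), with edgeR adjusted p of 0.301 and 0.299, and its groups did not overlap in Gl2-KD, as for 3.36% of all genes. DESeq2 called 3 members in Gl2-KD and 3 in Srrm2-KD, namely *Fgf11*, *Fgf17* and *Fgfr4*, where it called 8.16% and 6.62% of all genes. Limma-voom called 2 members in Gl2-KD (*Fgf11* and *Fgfr4*) and 1 in Srrm2-KD (*Fgf17*), where it called 2.48% and 1.33% of all genes, and edgeR with legacy=FALSE called the same members, where it called 3.21% and 1.44%. In Gl2-KD, 2 members were lower and 2 higher at 72 h in 3 of 3 experiments, where 16.2% of all genes were lower and 20.2% higher, and in Srrm2-KD 2 were lower and 3 higher, where 16.6% were lower and 16.2% higher. The formative and primed markers summed to 1390 to 1470 CPM at 24 h and 925 to 1370 CPM at 72 h in Gl2-KD, and the naive and core pluripotency markers to 4770 to 5210 CPM and 4310 to 4620 CPM. In Srrm2-KD the former summed to 1450 to 1840 CPM and 1380 to 1620 CPM, which overlapped, and the latter to 4490 to 5180 CPM and 3990 to 4200 CPM. Of the former, *Foxd3* (-1.31, SE 0.12, edgeR adjusted p = 0.00407), *Tcf15* (-0.68, SE 0.11, edgeR adjusted p = 0.0245) and *Cdh2* (-1.19, SE 0.26, edgeR adjusted p = 0.0498) were called lower at 72 h in Gl2-KD. So was *Nr0b1* of the latter (-0.62, SE 0.10, edgeR adjusted p = 0.0214). *Foxd3* was also called lower in Srrm2-KD (-0.91, SE 0.12, edgeR adjusted p = 0.0317). It kept its call in Gl2-KD with the block of experiment and siRNA (edgeR adjusted p = 0.0101). The trophoblast markers, mostly *Tfap2c* and *Tead4* by level, summed to 76.5 to 106 CPM at 24 h and 119 to 138 CPM at 72 h in Gl2-KD. In Srrm2-KD they summed to 72.8 to 108 CPM and 70.4 to 109 CPM. Of these, the keratin gene *Krt7* was called higher at 72 h in Gl2-KD (1.83, SE 0.27, edgeR adjusted p = 0.0144) and in Srrm2-KD (1.77, SE 0.26, edgeR adjusted p = 0.0333), but not with the block of experiment and siRNA (edgeR adjusted p = 0.063 in Gl2-KD). The part of these markers in the values of the members was not tested.

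**Figure D4:**
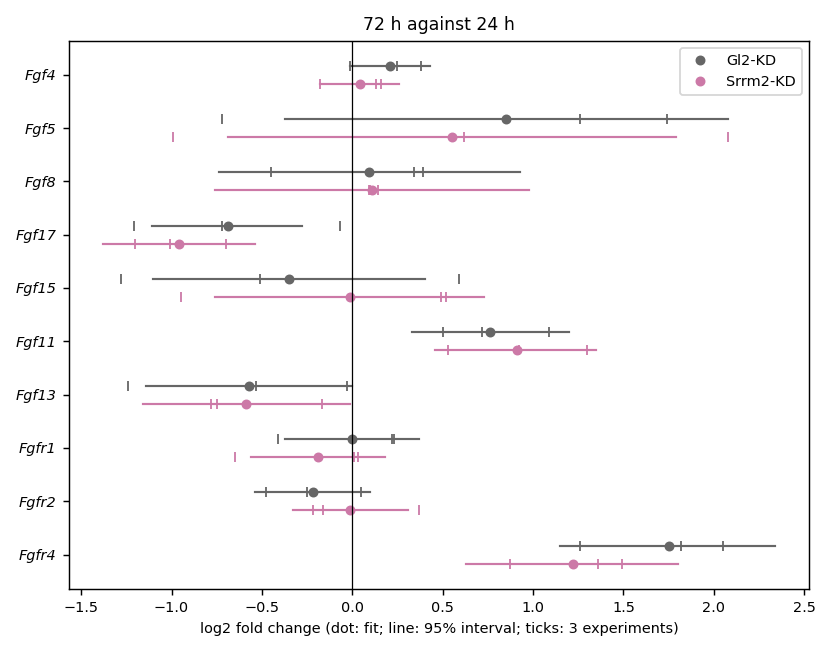
Log2 fold change of 72 h against 24 h for each gene within Gl2-KD and within Srrm2-KD, with the fitted value as a dot, its 95% interval as a line and the 3 experiments as ticks. *Fgfr4* and *Fgf11* lie above 0 and *Fgf17* below 0 under both siRNAs, while the ticks of *Fgf5* and *Fgf15* fall on both sides of 0.

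The experiments differed more in some members than the siRNAs did. *Fgf5* was higher at 72 h in experiments 1 and 2 and lower in experiment 3, whichever siRNA the cells had received: its log2 ratios for experiments 1, 2 and 3 were 1.26, 1.74 and -0.72 with Gl2 siRNA, and with *Srrm2* siRNA they were 0.62, 2.08 and -0.99. *Fgf15* was higher at 72 h in experiment 1 (0.59 and 0.52 with Gl2 and *Srrm2* siRNA) and lower in experiment 3 (-1.28 and -0.95), while experiment 2 differed in sign between the siRNAs (-0.51 and 0.49). The 4 libraries of experiment 1 had 6.54 to 10.5 CPM of *Fgf15*, and its mean was 8.35 CPM there, 23.3 CPM in experiment 2 and 17.8 CPM in experiment 3. *Fgf8* was the one member whose 4 libraries of experiment 1 (0.0986 to 0.13 CPM) lay below all other 8 (0.286 to 0.86 CPM), which was so for 13.7% of all genes. The opposite, with experiment 1 above, was so for 0 members and 16.7% of all genes. *Fgf4* had means of 205, 211 and 281 CPM and overlapped between experiments. These are descriptions, and no test between experiments was made.

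Of the other 21 listed FGF family genes, among them further ligands, *Fgfr3*, decoy receptor and co-receptor genes, 14 passed the filter and 0 were called in any comparison by edgeR. At an unadjusted p below 0.05, 0 passed at 24 h and 2 at 72 h, where 2.62% and 12.9% of all genes passed. With time 3 passed in each siRNA, where 16.8% (Gl2-KD) and 16.3% (Srrm2-KD) of all genes passed. The smallest p at 72 h after knockdown were those of *Fgf10* (log2 fold change -0.68, SE 0.27, edgeR adjusted p = 0.328) and *Fgf23* (-1.82, SE 0.77, edgeR adjusted p = 0.353). *Fgf23* was near the limit of detection, with means of 0.146 CPM in Gl2-KD and 0.0402 CPM in Srrm2-KD at 72 h and at most 40 counts in a library. *Fgf18*, the remaining gene of the *Fgf8* subfamily, had log2 fold changes with time of -1.62 (SE 0.43, edgeR adjusted p = 0.0905) in Gl2-KD and -1.51 (SE 0.44, edgeR adjusted p = 0.135) in Srrm2-KD. Its means at 24 h and 72 h were 1.38 and 0.396 CPM in Gl2-KD, and 0.943 and 0.308 CPM in Srrm2-KD. This was the direction of *Fgf17* but not of *Fgf8*, which had 0.09 (SE 0.38) in Gl2-KD and 0.11 (SE 0.40) in Srrm2-KD. *Fgfbp1*, which encodes a carrier that releases FGFs from the matrix, had -0.73 (SE 0.17, edgeR adjusted p = 0.0552) with time in Gl2-KD. Singled out after its values were seen, *Fgf2* had at most 3 counts in a library, so the cells' own *Fgf2* mRNA was near the limit of detection, and *Fgf12* was at 0 in all libraries.

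Downstream of the receptors, 23 of 24 genes for adaptors and the RAS-ERK core, and 18 of 18 ERK targets and feedback inhibitors, were tested. After knockdown 0 of either list were called at 24 h or 72 h. Of the adaptors and core genes, 11 of 23 were lower in 3 of 3 experiments at 72 h and 0 were higher, where 23.1% of all genes were lower, and the median log2 fold change was -0.15 against -0.02 for all genes. The kinase gene *Araf* had the smallest p for the mean of both times (-0.31, SE 0.06, edgeR adjusted p = 0.0815). Of the ERK targets, 9 of 18 were higher in 3 of 3 experiments at 72 h and 1 was lower, where 18.8% of all genes were higher, with a median of 0.20. At 24 h more went the other way: 6 were lower and 1 was higher, where 15.4% of all genes were lower, with a median of 0. Over both times 1 was lower and 1 higher in 6 of 6 pairs, where 7.25% and 7.0% of all genes were. At 72 h the transcription factor gene *Etv1*, a target of FGF signals, had a log2 fold change of 0.89 (SE 0.20, edgeR adjusted p = 0.144). The inhibitor gene *Spry1* had 0.37 there (SE 0.13, edgeR adjusted p = 0.292).

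With time in Gl2-KD, where 1.45% of all genes were called, 3 of 18 ERK targets were called by edgeR, each lower at 72 h: *Myc* by -1.73 (SE 0.25, edgeR adjusted p = 0.0144), the inhibitor gene *Spred1* by -0.67 (SE 0.11, edgeR adjusted p = 0.0245) and *Etv1* by -0.98 (SE 0.20, edgeR adjusted p = 0.042). The adaptor gene *Frs3*, whose product couples receptors to RAS, was called higher (0.99, SE 0.16, edgeR adjusted p = 0.0245), 1 of 23. Of the 16 tested genes for heparan sulfate synthesis and editing, *Sulf1*, an extracellular sulfatase that trims the FGF co-receptor sugar, was called lower (-0.64, SE 0.11, edgeR adjusted p = 0.0245). These calls depended on the block, because 0 of 19410 genes were called without a block or with experiment 1 as a batch, and 4 with the block of experiment and siRNA. In the latter fit their adjusted p ranged from 0.0533 (*Myc* and *Frs3*) to 0.0892 (*Etv1*) by edgeR. In Srrm2-KD 0 genes of these 3 lists were called with time by edgeR. At an unadjusted p below 0.05, 7 of 23 adaptors and core genes, 6 of 18 ERK targets and 3 of 16 heparan sulfate genes passed, where 16.3% of all genes did. After knockdown 0 heparan sulfate genes were called, with 0 at 24 h and 3 at 72 h at an unadjusted p below 0.05, where 2.62% and 12.9% of all genes passed.

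The genes whose levels over the 12 libraries were most like those of a member, by Pearson correlation of log2 CPM among all tested genes, are given as a description. For *Fgf4* they were *Hexa* (r = 0.99), *Arhgef16* and *Cldn4* (0.98 each), for *Fgf11* *Pisd-ps1* and *2900052L18Rik* (0.94 each) and *Stag3* (0.91), and for *Fgf17* *Klf16*, *Cfp* and *Nudcd3* (0.93 each). For *Fgfr4* they were *Gm13404* (0.98), *Fam198b* and *Psd2* (0.96 each). Among the members themselves the highest correlation was that of *Fgf11* and *Fgfr4* (r = 0.75, n = 12 libraries), both higher at 72 h, and the lowest that of *Fgf5* and *Fgf13* (r = -0.81). The 12 points share 3 experiments and 2 times, which contribute to every one of these values.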

How the data were processed

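The authors used Kallisto 0.46.1 with transcripts of GENCODE M24 (mouse) and deposited estimated counts per gene, which were not normalized. Symbols and positions came from GENCODE M21 (GRCm38). Counts were rounded and analysed with R 4.3.3 and edgeR 4.0.16. Low genes were removed by filterByExpr (minimum count 10, total 15), library sizes were scaled by TMM, and glmQLFit (legacy=TRUE) took group and experiment as terms for all 12 libraries. A gene was called when its p after Benjamini-Hochberg adjustment over 19410 genes fell below 0.05. Standard errors are the log2 fold change over the root of F. The experiment stood in for the RNA processing day of the study's methods, which the sources used here do not give per library.

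After removal of group means, the 18 pairs of libraries with the same experiment number correlated at 0.248 to 0.711 over genes, the other 36 at -0.596 to 0.216, so experiments were used as pairs. The paper's text calls the replicates independent; p-values measure the spread between them. The members, gene lists and alternatives were chosen with earlier results of these data known. Named genes were all members, called genes of each list or otherwise those with the smallest p, and the 3 genes most like a member. Alternatives were DESeq2 1.42.0, limma 3.58.1 voom, other scalings, filters, blocks and fit options, fits of unrounded counts, and omission of each library or experiment. Scripts were tested on simulated data.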

Additional observations from a re-analysis of the deposited data

How the results depend on the processing

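Counts of called members depended on the test. DESeq2 called 1 member at 24 h, 2 at 72 h and 2 for the mean after knockdown, and 3 with time in either siRNA. Limma-voom and glmQLFit with legacy=FALSE each called 1 for the mean, 2 with time in Gl2-KD and 1 with time in Srrm2-KD. The shares of all genes called by these tests and by DESeq2 are given with the results above. Without a filter, 2 were called for the mean and 1 with time in Srrm2-KD; where every library had to hold at least 10 counts, 1 and 1, and *Fgf8* could not be tested. With robust=TRUE, 1 was called with time in Srrm2-KD. With only the 6 libraries of the comparison, 1 was called at 72 h. The cause of these shifts was not tested.

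Pairing mattered as well. The replicate block of experiment and time point combined called 2 members at 72 h and 2 for the mean, where it called 3.73% and 5.79% of all genes. With time in Gl2-KD, 0 members were called without a replicate block, with experiment and siRNA combined as block, and with experiment 1 as a batch against the others. Leaving out libraries or experiments gave 0 to 1 called members for the mean, 0 to 2 with time in Gl2-KD and 0 to 1 with time in Srrm2-KD. Among all genes these fits called 0 to 288 for the mean, 0 to 387 with time in Gl2-KD and 0 to 135 with time in Srrm2-KD. The block settings named above for time in Gl2-KD called 0, 4 and 0 of all genes. There the calls of *Myc*, *Spred1*, *Etv1*, *Frs3*, *Sulf1*, *Krt7*, *Tcf15*, *Cdh2* and *Nr0b1* were lost too. *Foxd3* kept its call with experiment and siRNA as block (edgeR adjusted p = 0.0101) and lost it in the other settings. The blocks changed no other call of a member.

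Of 1654 recomputed fold changes, 1533 kept direction and call, 32 gained and 10 lost the call, and 79 turned direction, all of values that were not called. Under limma-voom the difference between times of *Fgf13* was 0.01, and the change with time in Srrm2-KD was 0.05 for *Fgf15* and 0.04 for *Fgfr2*. The difference between times of *Fgf13* was 0.02 without a block and 0.03 with the block of experiment and time point, and that of *Fgf8* was -0.01 without a block, -0.03 with experiment 1 as a batch and -0.01 with counts not rounded. *Fgf15* with time in Srrm2-KD was 0.03 with the block of experiment and siRNA, 0.06 with experiment 1 as a batch and 0.03 with only the 6 libraries.

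Leaving out libraries or experiments gave these ranges of log2 fold change. After knockdown at 24 h they were -0.48 to 0.83 for *Fgf5*, -0.28 to 0.02 for *Fgf13*, -0.55 to 0.18 for *Fgf15*, -0.23 to 0.13 for *Fgfr1*, -0.01 to 0.25 for *Fgfr2* and -0.17 to 0.29 for *Fgfr4*. At 72 h they were -0.65 to 0.51 for *Fgf5*, -0.44 to 0.12 for *Fgf13* and -0.04 to 0.75 for *Fgf15*. For the mean they were -0.18 to 0.55 for *Fgf5*, -0.14 to 0.35 for *Fgf15* and -0.34 to 0.08 for *Fgfr4*. For the difference between times they were -1.03 to 0.59 for *Fgf5*, -0.25 to 0.41 for *Fgf8*, -0.02 to 0.33 for *Fgf11*, -0.28 to 0.28 for *Fgf13* and -0.02 to 0.84 for *Fgf15*. With time in Gl2-KD they were -0.32 to 0.35 for *Fgf8* and -0.88 to 0.05 for *Fgf15*. With time in Srrm2-KD they were -0.04 to 0.15 for *Fgf4*, -0.34 to 1.44 for *Fgf5*, -0.12 to 0.32 for *Fgf8*, -0.31 to 0.50 for *Fgf15* and -0.20 to 0.11 for *Fgfr2*.

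Levels per kb moved by more than 1 SD (pooled within the 4 groups) with the median transcript length for *Fgf4* (136 CPM per kb), *Fgf13* (3.12), *Fgf15* (20.4), *Fgfr1* (34.8), *Fgfr2* (7.53) and *Fgfr4* (4.45), and with the longest transcript for *Fgf13* (0.771), *Fgf15* (9.12), *Fgfr1* (13.1) and *Fgfr2* (3.76), because the lengths differ. Depth limits *Fgf8* most.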
